A study of Mus musculus with 6 samples.

Results

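The adhesion G protein-coupled receptors and the Celsr cadherins were followed in bulk RNA sequencing of mouse brain tissue labelled PFC. The family was taken as each gene symbol that starts with Adgr followed by a letter and a number, or that is Celsr1, Celsr2 or Celsr3, in the tables of all 6 libraries. This gave 30 genes, 27 named Adgr and 3 named Celsr, of 53640 shared symbols, and 25 of the 30 passed the filter on low counts, which left 20694 genes for testing. The family was chosen by its measured values: it was picked because Adgrb2, Adgrl1 and Celsr2 had lower values in tau or higher values in treated tau. The rule does not say against which group, so the members' values in all 3 comparisons between the groups are given as a description, and calls among the members restate the choice.

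The treated tau group is 2 libraries of PS19(P301S) mice given WDR5-0103, a compound known to bind WDR5. The tau group is 2 libraries of PS19(P301S) mice given vehicle, and the control group is 2 libraries of C57BL/6 x C3H mice given vehicle. All mice were 6 months old, each library was made from a total cell lysate of bulk tissue, and the labels speak of biological duplicates. As background, PS19 mice express a human tau protein with the P301S change from a prion promoter cassette, so the transgene is not confined to 1 type of neuron, and WDR5 is a shared subunit of the enzymes that methylate H3K4, the histone mark in the series title. The sources used here do not give the dose, the route or the length of treatment.

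Adhesion GPCRs carry a long extracellular region that is cut next to the membrane within a domain called GAIN, and the stub left on the receptor can act as its own tethered agonist. At synapses, the latrophilins (Adgrl genes) bind teneurins and FLRT proteins on the opposite cell, and the BAI receptors (Adgrb genes) bind C1q-like proteins and RTN4 receptors and act on Rac signalling and dendritic spines. The Celsr genes encode cadherins with 7 membrane passes that hold neighbouring cells in a common orientation, the process called planar cell polarity, and guide axons and dendrites.

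The sequences just upstream of the genes that chose the family are shown because trimethylation of H3K4 in mammals is found mostly at promoters rich in CpG, where C is followed by G on the same strand. They are RefSeq promoters of the GRCm38.p6 build, the 250 bases before the start of each gene, 5′ to 3′ on the gene's own strand, with every CpG in capitals. Adgre4, a member with almost no reads in this tissue, is shown for contrast. The windows are chr4:129984620-129984869 on the plus strand for Adgrb2, chr3:108415580-108415829 on the minus strand for Celsr2, chr8:83899848-83900097 on the plus strand for Adgrl1 and chr17:55749734-55749983 on the plus strand for Adgre4.
Adgrb2: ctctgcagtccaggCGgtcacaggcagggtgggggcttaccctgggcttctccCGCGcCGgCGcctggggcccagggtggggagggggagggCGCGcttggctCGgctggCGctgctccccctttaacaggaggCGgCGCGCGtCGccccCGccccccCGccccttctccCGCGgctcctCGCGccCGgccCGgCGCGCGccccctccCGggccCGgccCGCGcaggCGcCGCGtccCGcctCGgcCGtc
Celsr2: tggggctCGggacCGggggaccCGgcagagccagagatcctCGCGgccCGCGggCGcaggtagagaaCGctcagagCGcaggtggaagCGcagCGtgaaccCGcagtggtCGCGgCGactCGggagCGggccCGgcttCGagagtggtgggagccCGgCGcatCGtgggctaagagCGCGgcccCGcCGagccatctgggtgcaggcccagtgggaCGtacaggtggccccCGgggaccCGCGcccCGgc
Adgrl1: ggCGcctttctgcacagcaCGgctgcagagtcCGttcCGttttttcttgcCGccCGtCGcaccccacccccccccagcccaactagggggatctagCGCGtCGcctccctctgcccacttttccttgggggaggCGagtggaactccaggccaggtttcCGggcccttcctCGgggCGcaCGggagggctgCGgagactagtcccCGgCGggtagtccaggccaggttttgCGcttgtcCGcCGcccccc
Adgre4: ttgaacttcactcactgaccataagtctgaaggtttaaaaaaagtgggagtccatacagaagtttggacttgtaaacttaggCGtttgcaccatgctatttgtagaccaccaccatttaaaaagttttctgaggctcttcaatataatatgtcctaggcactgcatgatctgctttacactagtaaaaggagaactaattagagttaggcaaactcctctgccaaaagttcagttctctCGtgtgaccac

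The Adgrb2 window held 35 CpG, the Celsr2 window 32 and the Adgrl1 window 21, while the Adgre4 window held 2. The median over 32851 promoters of 27025 genes was 6 CpG, and 17.9% of them held 20 or more. Of the 30 members, 22 were in the table, with 26 windows between them. Each window lies before a RefSeq start, and some of these starts, such as those of Adgrl2 and Adgrg4, lie inside the GENCODE gene. The high counts were not limited to the genes that chose the family, since 1 of the 3 Adgrl3 windows held 36 CpG, Adgrg6 held 32, Adgrg2 held 26 and Adgra3 held 25. The letters GGGCGG, searched on both strands, occurred in 14 of the 26 member windows, including those of Adgrb2 and Adgrl1 and not that of Celsr2, and in 32.7% of all promoters. The letters TATAAA occurred on either strand in 2 of the 26 windows, 1 each of Adgrl2 and Adgrl3, and in 12.4% of all promoters. These matches describe the letters only, and no chromatin data were analysed here.

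**Figure D1:**
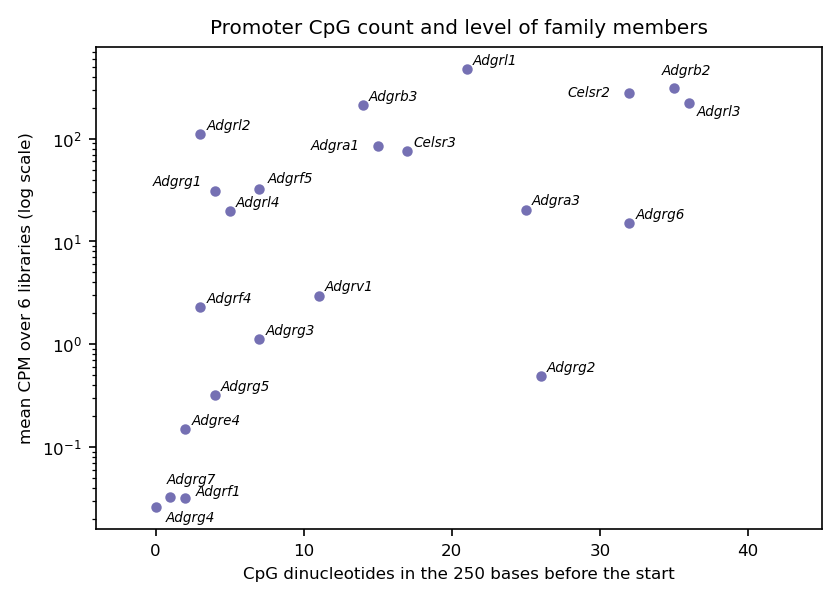
Number of CpG in the 250 bases before a RefSeq start (x axis) against mean TMM-scaled CPM over 6 libraries (y axis, log scale), 1 point per member with a RefSeq promoter, at its window with the most CpG where it has several. The windows of Adgrl2 and Adgrg4 lie inside their genes. Adgrl1, Adgrb2, Celsr2 and Adgrl3 lie at the upper right with 21 to 36 CpG, and 5 of the 6 members under 1 CPM have 5 or fewer, Adgrg2 with 26 being the exception.

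Set against level, 5 of the 6 windows of members below 1 CPM (read counts relative to library size, scaled by TMM) held 5 or fewer CpG, against 49.6% of all promoters. The 8 members at 50 CPM or more with a window had 10 between them, 3 of these of Adgrl3, while Adgrb1 (158.8 CPM) had none. Of the 10 windows, 4 held 20 or more CpG, those of Adgrb2, Celsr2 and Adgrl1, which chose the family, and 1 of Adgrl3. Celsr3, Adgra1 and Adgrb3, also above 50 CPM, held 17, 15 and 14 CpG. The Adgrl2 window held 3 at 110.1 CPM, but it (chr3:148954636-148954885) lies inside the gene (chr3:148815583-148990555, minus strand). It therefore does not describe the outermost start of Adgrl2. The Adgrg4 window, among those below 1 CPM, also lies inside its gene. Among lower members, Adgrg6 held 32 CpG at 15.1 CPM, Adgra3 25 at 20.4 CPM and Adgrg2 26 at 0.489 CPM.

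Family counts were 0.214% and 0.221% of the shared counts in the treated tau libraries, 0.185% and 0.191% in the tau libraries and 0.211% and 0.233% in the control libraries. In CPM the family summed to 2172 and 2284 in treated tau, 1852 and 1931 in tau and 2035 and 2302 in control. Both tau libraries were therefore the lowest, and the treated tau and control libraries overlapped. The sum includes Adgrl1, Adgrb2 and Celsr2, the genes that chose the family, with means over all libraries of 477, 313.5 and 276.8 CPM. This order of the groups therefore partly restates the choice and is not read as a trait of the family. Total counts ran between 17690811 (tau 2) and 34774643 (treated tau 1).

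The tissue label was checked on Slc17a7, the vesicular glutamate transporter of cortical excitatory neurons, at 1005 and 992 CPM in treated tau, 920.3 and 891 in tau and 933 and 973 in control. Tbr1, a transcription factor of cortical projection neurons, lay between 67.2 and 93.0 CPM in every library. The summed level of 8 olfactory bulb genes was 261 CPM in the library labelled control 1 and between 15.2 and 19.5 CPM in the other 5. Prnp, whose cassette drives the PS19 transgene, stood at 1876 and 1594 CPM in treated tau, 1684 and 1472 in tau, and 1654 in control 1 against 876 in control 2, so the library labelled control 1 was at the level of the transgenic ones. Control 1 stands for the library labelled so, and results are also given without it. Mapt, the mouse tau gene, was at 459 and 497 CPM in treated tau, 574 and 589.7 in tau and 576 and 450.4 in control. Xist was at 2.43 and 1.75 CPM in treated tau, 186 and 235 in tau, and 0.197 and 318 in control 1 and control 2, while Ddx3y, on the Y chromosome, was at 108 and 91.2, 0.391 and 0.115, and 95.2 and 0.314 CPM in the same order of libraries. Sex therefore cannot be told apart from treatment in treated tau against tau. Oligodendrocyte genes (10) summed to 5799.6 CPM in tau 2 and between 1532 and 3096 CPM elsewhere. The treated tau tables list 54134 symbols and the other 4 list 54429, so the gene models used for counting cannot be told apart from treatment either, though all 30 members are in each table.

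Counted per kilobase of exon, which allows genes to be compared, Adgrl1 and Adgrb2 stood first and second of the family in each of the 6 libraries. Adgrl1, the latrophilin first known as a receptor for a spider toxin, averaged 55.5 CPM per kb over the 6 libraries (48.1 to 62.2). Adgrb2 averaged 48.3 CPM per kb (40.3 to 53.9), and the Adgrl1 and Adgrb2 ranges overlapped although their order did not change within a library. Celsr2 (24.05) and Adgrb1 (22.0) followed, with overlapping ranges of 16.9 to 29.1 and 15.4 to 26.7 CPM per kb. Then came Adgra1 at 15.7, Adgrl3 at 12.5, Adgrb3 at 11.4, Adgrl2 at 7.76 and Celsr3 at 6.33 CPM per kb. The members best known from glia, vessels and macrophages were lower, with Adgrg1 at 5.76, Adgrl4 at 4.30, Adgrf5 at 3.57 and Adgre1, the F4/80 antigen of macrophages and microglia, at 2.73 CPM per kb. Over the whole count of the family, the latrophilins held 39.6%, the BAI genes 32.6% and the Celsr genes 17.3%, and the 6 highest genes (Adgrl1, Adgrb2, Celsr2, Adgrl3, Adgrb3 and Adgrb1) held between 77.5% and 80.6% in each library.

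**Figure D2:**
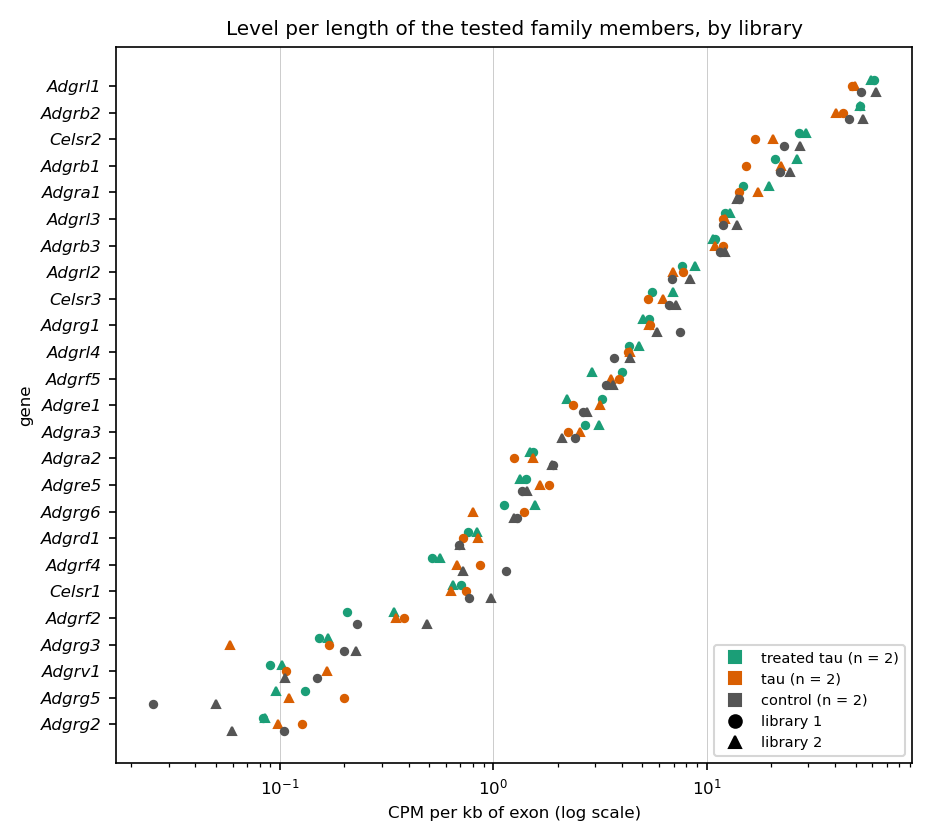
CPM per kb of exon (x axis, log scale) of the 25 members that passed the filter, ordered by their mean, with 1 symbol per library (circle for library 1, triangle for library 2, colour for group). Adgrl1 and Adgrb2 lead in all 6 libraries, and the order spans a mean of 55.5 CPM per kb for Adgrl1 down to 0.0926 CPM per kb for Adgrg2.

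Exon overlap with other genes limits some of these counts, since the sources used here do not give the strand setting of the counting. Celsr2 and Adgrb2 share no exon base with another gene. Of the Adgrl1 exon bases, 15.6% lie opposite Gm10644, Gm44330 and Gm44450, whose own counts were 9 to 34, 0 and 0 to 1 per library. Adgrl3 shares 8.91% of its exon bases with Gm16054 on the other strand, which had 61 to 153 counts. Adgre5 shares 23.8% with Ddx39, at 11.6 to 14.4 CPM, so its own low level is uncertain.

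Celsr2 was the highest of the 3 Celsr genes, by CPM and per kb. This gene, on mouse chromosome 3 (chr3:108390851-108415552, minus strand, mm10), had 312 and 336 CPM in treated tau, 194 and 235 CPM in tau and 267 and 317 CPM in control libraries. The tau libraries were the lowest 2 of 6, with no overlap with either other group, and the treated tau and control ranges overlapped. Its means were 324 ± 17.0 CPM in treated tau, 215 ± 28.8 in tau and 292 ± 35.7 in control (SD, n = 2 each). Celsr3, which in mice is needed for the large axon tracts of the forebrain, had 67.2 and 84.3 CPM in treated tau, 64.0 and 75.4 CPM in tau and 80.3 and 86.9 CPM in control. Its treated tau libraries overlapped both other groups. Celsr1, known for planar polarity in skin and neural tube, was low at 7.72 and 7.08 CPM in treated tau, 8.17 and 6.99 CPM in tau and 8.45 and 10.7 CPM in control, with the control libraries highest.

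Among the latrophilins, Adgrl1 (chr8:83900105-83941954, plus strand) had 525 and 508 CPM in treated tau, 413 and 427 CPM in tau and 454 and 534 CPM in control. The tau libraries were again the lowest 2, and the treated tau libraries lay within the control range. Its means were 517 ± 11.9, 420.1 ± 9.92 and 494 ± 57.1 CPM in treated tau, tau and control (SD, n = 2 each). Adgrl3, whose human gene has been linked to attention deficit disorder, had 216 and 228 CPM in treated tau, 212 and 216 CPM in tau and 211 and 248 CPM in control, values that lie close together. Adgrl2 had 109 and 125 CPM in treated tau, 111 and 98.4 CPM in tau and 97.95 and 119 CPM in control, and its groups overlapped. Adgrl4, a gene of blood vessel endothelium, had 19.85 and 22.2 CPM in treated tau, 19.6 and 19.9 in tau and 16.8 and 20.03 in control, while 10 endothelial and mural genes summed to 344 and 296, 315 and 299, and 329 and 336 CPM in those libraries.

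Adgrb2 (chr4:129984870-130022633, plus strand), the second of the BAI receptors, had 341.8 and 341.9 CPM in treated tau, 284 and 261 CPM in tau and 303 and 349.6 CPM in control. The tau libraries were once more the lowest 2. Its means were 342 ± 0.0303, 272 ± 15.8 and 326 ± 33.1 CPM in treated tau, tau and control (SD, n = 2 each). Adgrb1, which takes part in the uptake of dying cells and in spine formation, had 152 and 192.5 CPM in treated tau, 111 and 161 CPM in tau and 159.6 and 177 CPM in control. Only tau 1 stood low for Adgrb1, and tau 2 lay within the range of the other groups. Adgrb3, the receptor for C1q-like proteins in cerebellum, had 204 and 199 CPM in treated tau, 222 and 203 CPM in tau and 214 and 228 CPM in control, and was lowest in treated tau 2.

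**Figure D3:**
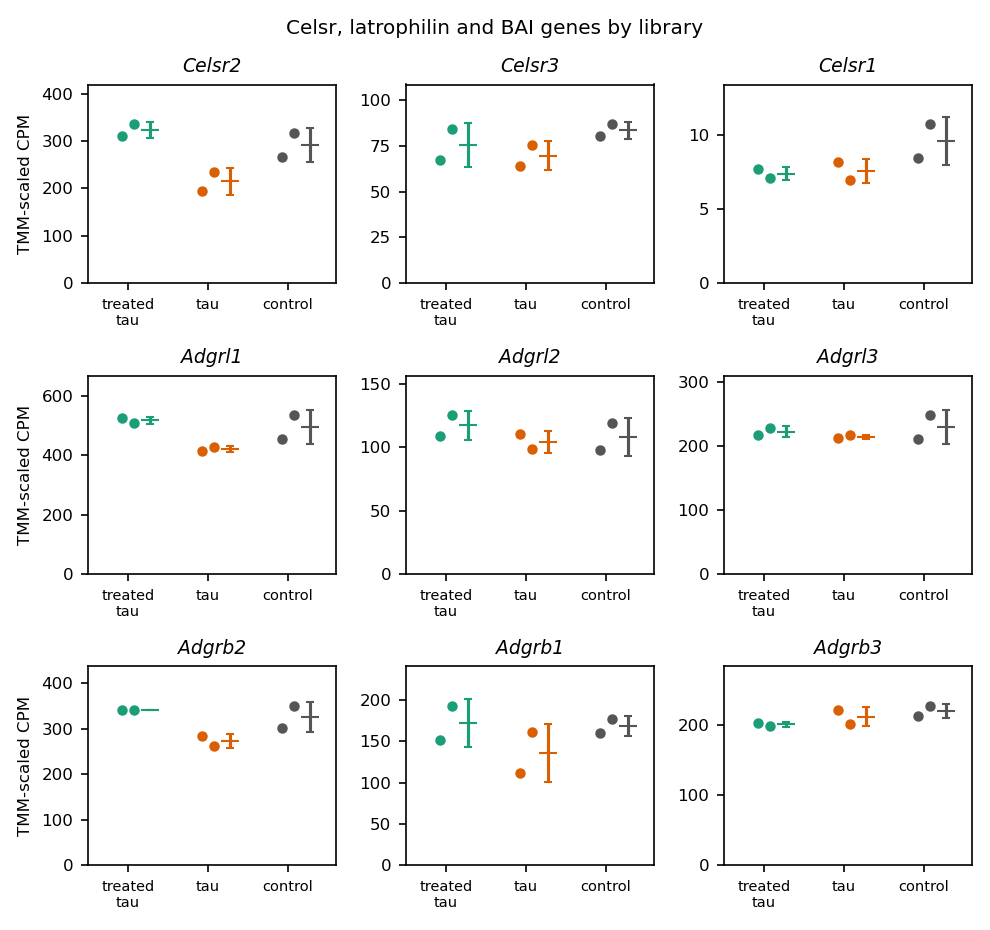
TMM-scaled CPM (y axis, starting at 0) of the Celsr, latrophilin and BAI genes in treated tau, tau and control libraries, 1 point per library, with the mean and SD (n = 2) beside each pair. The tau points lie below both other groups for Celsr2, Adgrl1 and Adgrb2, and overlap with at least 1 other group for Celsr3, Celsr1, Adgrl2, Adgrl3, Adgrb1 and Adgrb3.

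The remaining subfamilies were lower. Adgra1, an orphan receptor found mainly in brain, had 79.5 and 106 CPM in treated tau, 76.85 and 94.1 CPM in tau and 76.45 and 74.8 CPM in control, so that the control libraries were the lowest 2. Adgra3 had 21.8 and 25.35 CPM in treated tau, 18.1 and 20.75 CPM in tau and 19.6 and 17.1 CPM in control, highest in both treated tau libraries. Adgra2, which with Reck forms the receptor for Wnt7 ligands on brain endothelium, had 8.885 and 8.61 CPM in treated tau, 7.235 and 8.88 CPM in tau and 11.05 and 10.9 CPM in control. Both control libraries were above the other 4 for this gene.

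Adgrg1, a receptor of cortical development that also acts in oligodendrocyte precursors, had 29.0 and 27.3 CPM in treated tau, 29.3 and 29.2 CPM in tau and 40.7 and 31.9 CPM in control. The library labelled control 1 was the highest. Adgrg6, known for the myelination of peripheral nerve by Schwann cells, had 13.7 and 19.2 CPM in treated tau, 16.9 and 9.80 CPM in tau and 15.7 and 15.3 CPM in control, and its groups overlapped. Adgrf5, an endothelial and lung receptor, had 36.1 and 26.2 CPM in treated tau, 35.2 and 32.15 CPM in tau and 30.5 and 32.7 CPM in control. The 2 treated tau libraries were the highest and the lowest for Adgrf5.

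Adgre1 had 10.4 and 7.20 CPM in treated tau, 7.665 and 10.3 CPM in tau and 8.525 and 8.94 CPM in control, beside a summed level of 10 microglial genes of 374 and 367, 374 and 404, and 339 and 362 CPM. The groups overlapped for Adgre1. Adgre5, the leukocyte antigen CD97, had 5.32 and 4.996 CPM in treated tau, 6.88 and 6.19 CPM in tau and 5.13 and 5.41 CPM in control, highest in both tau libraries. Adgrd1, an orphan receptor, had 6.34 and 6.935 CPM in treated tau, 5.98 and 7.05 CPM in tau and 5.72 and 5.80 CPM in control, with the control libraries lowest.

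Of the members that passed the filter below a mean of 5 CPM, Adgrv1, the very large receptor of hair cells, ranged from 2.22 to 4.13 CPM over the 6 libraries, and Adgrf4 from 1.58 to 3.51 CPM. Adgrg3, Adgrf2, Adgrg2 and Adgrg5 had between 2 and 41 counts in a library. Adgrg5, Adgrg1 and Adgrg3 lie in this order on the plus strand of chromosome 8 with gaps of 31.5 and 3.5 kb, and only Adgrg1 of them exceeded 5 CPM. The 5 members that did not pass had 24 counts (Adgre4), 6 (Adgrf1), 5 (Adgrg7), 4 (Adgrf3) and 4 (Adgrg4) over all libraries. The 6 counts of Adgrf1 were 4 and 2 in the treated tau libraries, with 0 in the other 4, where a count of 0 allows up to 3 counts per library for counting error alone.

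Treated tau against tau, the comparison that asks what WDR5-0103 did in PS19 mice and that bears on the choice of the family, gave the following fold changes as a description. The log2 fold change was 0.59 ± 0.11 (SE) for Celsr2, 0.33 ± 0.09 for Adgrb2 and 0.30 ± 0.09 for Adgrl1. Adgrb1 had 0.34 ± 0.17, but 0.10 without tau 1, 0.63 without tau 2 and 0.17 without treated tau 2. The closest paralogues had smaller values, with 0.12 ± 0.13 for Celsr3, -0.045 ± 0.189 for Celsr1, 0.16 ± 0.12 for Adgrl2, 0.05 ± 0.09 for Adgrl3 and -0.08 ± 0.08 for Adgrb3. Over the 25 tested members 15 were positive and the median was 0.05, while over all 20694 genes the median was -0.006 and 48.7% were positive. The members' median lay between 0.006 (without tau 1) and 0.109 (without treated tau 1) when 1 library was left out.

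In edgeR's quasi-likelihood test with Benjamini-Hochberg adjustment over all genes, 1 of the 25 members, Celsr2, was past the threshold of 0.05 in treated tau against tau, beside 3.76% of all genes. Celsr2 is one of the genes the family was picked for, so the call restates the choice and nothing is read from it. The number of members called and the share of all genes called changed with the setting. They were 0 and 1.62% without tau 1, 0 and 1.95% without treated tau 1, 0 and 1.93% without treated tau 2, and 0 and 0.305% when only protein-coding genes were fitted. They were 2 (Celsr2 and Adgrb2) and 3.93% with DESeq2. They were 3 (Celsr2, Adgrb2 and Adgrl1) and 3.85% without control 1, 3 and 3.84% without control 2, and 3 and 4.29% with the treated tau and tau groups alone. Both treated tau libraries exceeded both tau libraries for 5 members (Adgra3, Adgrb2, Adgrl1, Adgrl3 and Celsr2), against 21.2% of all genes, and both lay below for 6 (Adgre5, Adgrf2, Adgrf4, Adgrg1, Adgrg2 and Adgrv1), against 20.1%.

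Other values moved with treated tau against tau. Over all genes, both treated libraries were higher than both tau libraries for 21.2% and lower for 20.1%. The 10 markers of excitatory cortical neurons summed to 3165 and 3040.1 CPM in treated tau, against 2895 and 2755 CPM in tau, with both treated libraries higher for 6 of 10 and lower for none. The 10 markers of striatal projection neurons summed to 194 and 207 CPM in treated tau, against 239 and 400 CPM in tau 1 and tau 2, with both treated libraries lower for 7 of 10. No marker of either list was at 0 in all libraries. In bulk tissue fewer cells of a type and less RNA per cell cannot be told apart, and the part of these values, of sex and of the symbol lists in the family's differences was not tested.

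Tau against control, which asks what the transgene did and which also bears on that choice, had negative fold changes for those genes. Both comparisons share the tau libraries, so opposite signs between them are not independent. The log2 fold change was -0.45 ± 0.11 for Celsr2, -0.26 ± 0.09 for Adgrb2, -0.23 ± 0.09 for Adgrl1 and -0.31 ± 0.17 for Adgrb1. Among the paralogues it was -0.27 ± 0.13 for Celsr3, -0.325 ± 0.187 for Celsr1, -0.05 ± 0.12 for Adgrl2, -0.10 ± 0.09 for Adgrl3 and -0.055 ± 0.079 for Adgrb3. In the lower subfamilies, Adgra2 had -0.46 ± 0.16 and Adgrg1 -0.31 ± 0.13, while Adgre5 had 0.32 ± 0.19. Adgrg5, with only 2 to 16 counts in a library, had 2.07 ± 0.72. The Adgrg1 value was -0.12 without control 1 and -0.48 without control 2. The median over the 25 members was -0.055, with 14 negative, against -0.003 over all genes.

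No gene of the family passed the adjusted threshold in tau against control by edgeR's quasi-likelihood test, where 0% of all genes (0 of 20694) did. DESeq2 called 0 members, beside 0.242% of all genes (50 of 20694). An unadjusted p under 0.05 was reached by 6 members (Adgra2, Adgrb2, Adgrg1, Adgrg5, Adgrl1 and Celsr2) and by 9.95% of all genes. Of these members, Adgrg5 had a positive fold change and the others negative ones. Both tau libraries lay below both control libraries for 8 members (Adgra2, Adgrb2, Adgrg1, Adgrg3, Adgrl1, Celsr1, Celsr2 and Celsr3), against 21.3% of all genes, and above for 4 (Adgra1, Adgrd1, Adgre5 and Adgrg5), against 20.3%.

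The size in tau against control varied with the control library. Without control 1, the library with olfactory bulb genes and transgenic levels of Prnp, the log2 fold change was -0.56 for Celsr2, -0.36 for Adgrb2 and -0.345 for Adgrl1. That fit sets the tau libraries against control 2 alone, which like them had a high level of Xist and almost no Ddx3y. Without control 2 it was -0.32 for Celsr2, -0.15 for Adgrb2 and -0.11 for Adgrl1. Adgrb1 went to -0.06 without tau 1 and to -0.60 without tau 2. Cell type markers moved with this comparison as well. The striatal markers summed to 239 and 400 CPM in tau and 193 and 179 CPM in control, with both tau libraries higher for 9 of 10 and lower for none. The endothelial and mural markers summed to 315 and 299 CPM in tau and 329 and 336 CPM in control, with both tau libraries lower for 4 of 10 and higher for none. Astrocyte and microglial markers each had both tau libraries higher for 3 of 10 and lower for none. Over all genes, both tau libraries were higher for 20.3% and lower for 21.3%. No marker of these lists was at 0 in all libraries, and their part in the family's differences was not tested.

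**Figure D4:**
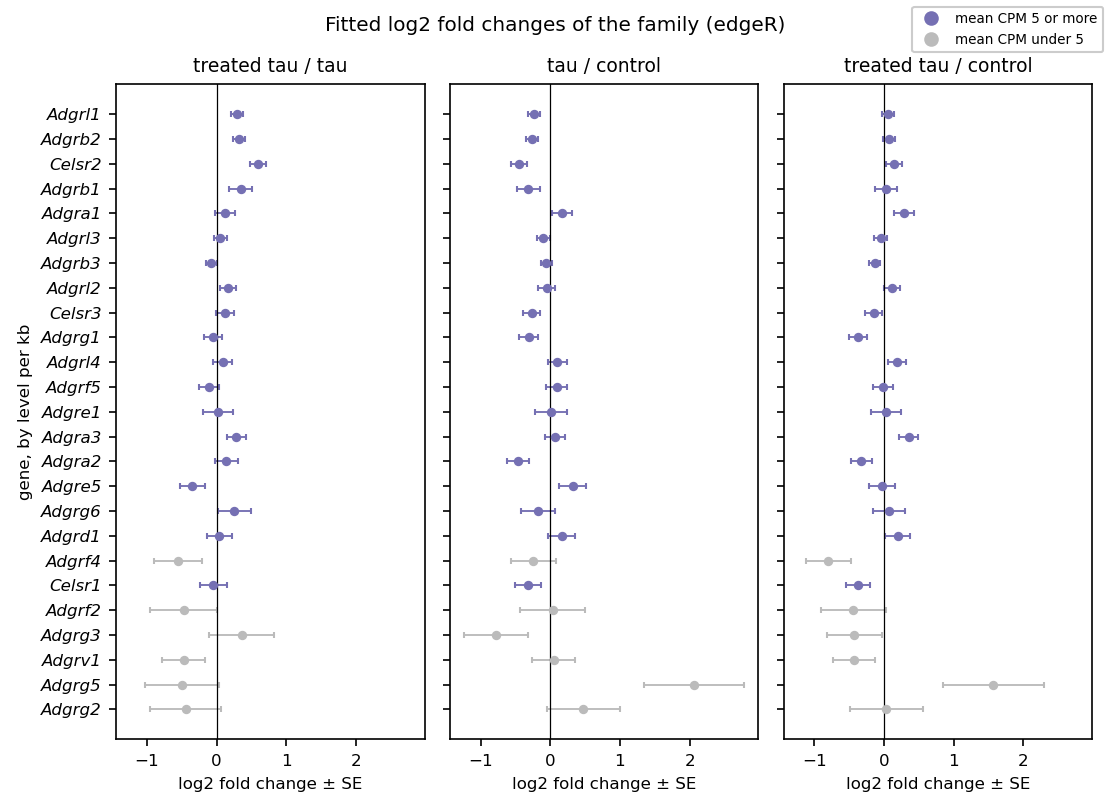
Fitted log2 fold change with its SE (x axis) of the 25 tested members, ordered by level per kb, in treated tau against tau, tau against control and treated tau against control. Celsr2, Adgrb2, Adgrl1 and Adgrb1 lie right of 0 in the first panel and left of 0 in the second, and members under 5 CPM (grey) have the widest SE.

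Transcript base composition moved with these differences. Adgrb1 (63.6% G and C in its longest transcript), Adgrb2 (63.1%), Adgrl1 (59.1%) and Celsr2 (58.4%) were among the 6 members above 58%, while Adgrl3 (46.5%), Adgrl2 (46.9%) and Adgrb3 (42.2%) were AT-rich. All 6 members above 58% had negative fold changes in tau against control, between -0.46 and -0.23 with a median of -0.32, and the 1209 coding genes above 58% (of those with an average log2 CPM above 1) had a median of -0.09. In treated tau against tau, the 6 members had a median of 0.31 and those coding genes 0.08. Here the 6 members ran from -0.045 for Celsr1 to 0.59 for Celsr2, with Adgra2 at 0.14. Across the 19 members at 5 CPM or more, Pearson's r between GC content and fold change was 0.38 (Spearman's rho 0.44) in treated tau against tau, -0.54 (-0.60) in tau against control and -0.21 (-0.24) in treated tau against control. Over all 12520 coding genes with an average log2 CPM above 1, a lower cut-off than that of the members, rho was 0.21, -0.24 and -0.07. These correlations run across genes of the same libraries and are a description. Adgrb2, Adgrl1 and Celsr2 are among the members above 58% and were picked by such values. The signs, medians and correlations of the members therefore partly restate the choice.

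With an offset for GC content and length in each library, an alternative chosen after seeing the data, the tau against control value was -0.27 ± 0.09 for Celsr2, -0.06 ± 0.08 for Adgrb2, -0.07 ± 0.07 for Adgrl1, -0.10 ± 0.15 for Adgrb1 and -0.09 ± 0.11 for Celsr3. The treated tau against tau value was 0.50 ± 0.09 for Celsr2, 0.23 ± 0.08 for Adgrb2, 0.20 ± 0.07 for Adgrl1, 0.23 ± 0.15 for Adgrb1 and 0.035 ± 0.111 for Celsr3.

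**Figure D5:**
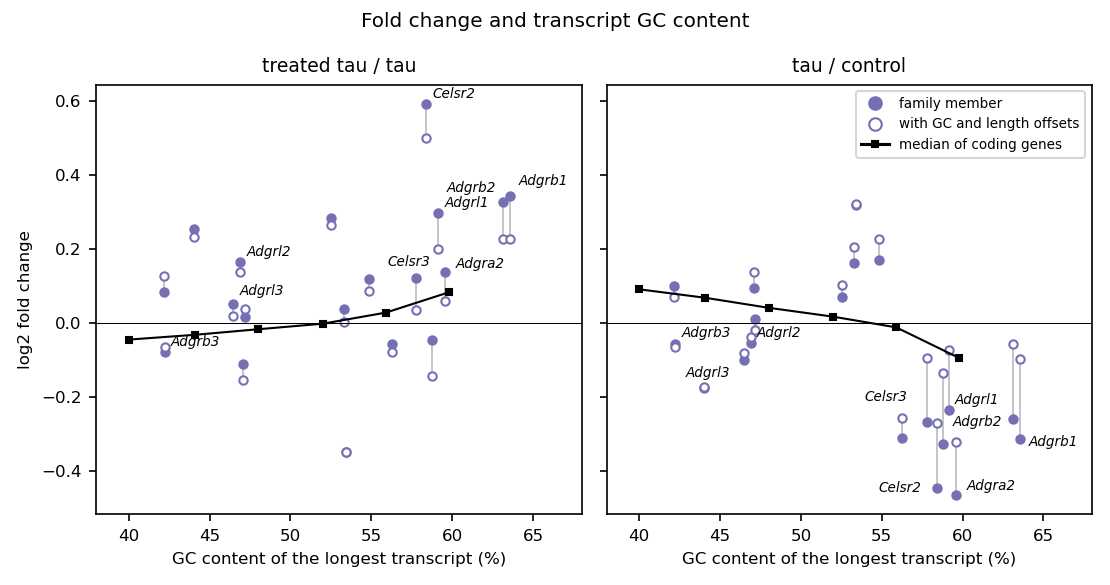
Log2 fold change (y axis) against GC content of the longest transcript (x axis, percent) for the 19 members at 5 CPM or more, in treated tau against tau and in tau against control. Filled points are the fitted values, open points those with offsets for GC content and length, and a black line shows the median of coding genes by GC class. In the right panel the points above 58% move toward 0 with the offsets, to -0.06 for Adgrb2 and -0.27 for Celsr2.

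Treated tau against control shares its libraries with the other 2 comparisons, and the rule's higher values in treated tau may have been read against control, so it too is a description. No member passed by edgeR's quasi-likelihood test, beside 4.22% of all genes. DESeq2 called 0 members, a count without its share of all genes here, so nothing is read from it. An unadjusted p under 0.05 was reached by 3 members (Adgra3, Adgrf4 and Adgrg1) and by 16.3% of all genes. The log2 fold change was 0.15 ± 0.11 for Celsr2, 0.07 ± 0.09 for Adgrb2 and 0.065 ± 0.085 for Adgrl1. Without control 1 these were 0.03, -0.03 and -0.04, and without control 2, which leaves the control library whose Xist and Ddx3y were like those of treated tau, they were 0.28, 0.18 and 0.19. The median over the 25 members was 0.03, with 13 positive, and over all genes -0.007, with 48.8% positive. The members' median turned negative without control 1 (-0.043) and with the stricter filter (-0.032), and was 0.07 without control 2. The excitatory neuron markers summed to 3165 and 3040.1 CPM in treated tau, against 2609.9 and 3182 CPM in control, with both treated libraries higher for 5 of 10, against 23.0% of all genes.

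Adgrg1 was at -0.37 ± 0.13. Without control 2, leaving the high library control 1, Adgrg1 was at -0.53 and was the 1 member past the threshold, beside 3.63% of all genes, and without control 1 it was at -0.17. Adgra3 had 0.36 ± 0.14, with both treated tau libraries above both control libraries. Both treated tau libraries were above both control libraries for 4 members, against 23.0% of all genes, and below for 7, against 23.3%.

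The partners of these receptors were read in 3 lists, beside the values over all genes. Over all genes, 3.76% were called, 48.7% were positive and the median was -0.006 in treated tau against tau. In tau against control 0% were called, 49.4% were positive and the median was -0.003, and in treated tau against control 4.22% were called. Of 29 ligands and extracellular partners, 28 were tested. In treated tau against tau Nrxn2, a neurexin of presynaptic terminals, was the 1 gene of 28 that passed, a share near the 3.76% of all genes. It had 217 and 218 CPM in treated tau, 164 and 174 CPM in tau and 223 and 240.4 CPM in control. Its treated tau and control libraries lay above both tau libraries. Nrxn2 rose by a log2 fold change of 0.36 ± 0.08 against tau (adjusted p = 0.0294, edgeR) and had -0.46 ± 0.08 in tau against control (adjusted p = 0.395). The call was lost without any 1 of the 4 treated tau and tau libraries (adjusted p from 0.0915 to 0.266), with protein-coding genes only (0.125) and with GC content and length offsets (0.25, adjusted p = 0.101).

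Tenm4, a teneurin bound by latrophilins, had 0.24 ± 0.09 in treated tau against tau (adjusted p = 0.256, edgeR). Over this list 19 of 28 were positive with a median of 0.08 in treated tau against tau, and 19 of 28 were negative with a median of -0.11 and none called in tau against control, where Col4a2, a basement membrane collagen, had -0.43 ± 0.12. In treated tau against control none was called, 12 of 28 were positive with a median of -0.04, and Lama2 and Tenm3 had -0.47 ± 0.14 and -0.25 ± 0.09.

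All 18 core planar cell polarity genes, which act with the Celsr proteins, were tested. None passed in treated tau against tau, where 15 were positive with a median of 0.105 and Dvl3 and Dvl1, the Dishevelled adaptors, had 0.395 ± 0.181 and 0.14 ± 0.09. None passed in tau against control, where 15 were negative with a median of -0.13, Wnt5a having -0.545 ± 0.210 and Prickle1 0.26 ± 0.09. In treated tau against control 6 of 18 were positive with a median of -0.07, and 1 of 18, Prickle1, passed, beside 4.22% of all genes. Prickle1 had 131 and 147 CPM in treated tau, 124 and 133 CPM in tau and 107 and 106.5 CPM in control. Its log2 fold change was 0.38 ± 0.09 (adjusted p = 0.0389, edgeR). Leaving out any 1 of the 6 libraries ended this call (adjusted p from 0.0555 to 0.311), as did no filter (0.062), protein-coding genes only (0.223) and the treated tau and control groups alone (0.0583). Wnt5a had -0.356 ± 0.195 in this comparison.

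Of 28 intracellular partners, 19 were positive in treated tau against tau with a median of 0.08, and 1 of 28, Shank1, a postsynaptic scaffold protein, passed, a share near the 3.76% of all genes. It had 117 and 134 CPM in treated tau, 85.0 and 94.9 CPM in tau and 148.7 and 149.2 CPM in control. The tau libraries were lowest, and the treated tau libraries stayed below control. Shank1 rose by a log2 fold change of 0.483 ± 0.095 against tau (adjusted p = 0.0199, edgeR), a call lost without tau 1 (0.212), without treated tau 2 (0.212), with protein-coding genes only (0.102) and with the offsets (0.0607). Shank3, which shares partners with Adgrl1, had 0.33 ± 0.10 (adjusted p = 0.149, edgeR). In tau against control no gene of the list passed and 12 of 28 were positive with a median of -0.04, with Shank1 at -0.73 ± 0.095 and Shank3 at -0.27 ± 0.10, and in treated tau against control none passed and 19 of 28 were positive with a median of 0.08, with Baiap3 at -0.684 ± 0.255 and Shank1 at -0.25 ± 0.09.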

How the data were processed

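RNA was sequenced from 6 libraries, 2 per group. Libraries carry the number of their sample title, from which some file headers differ. Per the labels' protocols, the libraries were strand-specific, made from RNA depleted of ribosomal RNA and read on a HiSeq machine; Cutadapt trimmed the reads and TopHat2, at default parameters, aligned them. SAMtools, featureCounts, edgeR and mm10 are further named in the submitters' processing notes, and the sources used here give neither versions nor a strand setting. Each of the 6 tables holds the authors' deposited counts, whole numbers per gene symbol with no normalization.

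For the 53640 symbols in all tables, filterByExpr (minimum count 10) and TMM preceded a fit over all 6 libraries by edgeR 4.0.16 (quasi-likelihood test, two-sided, no covariate, 3 residual degrees of freedom) in R 4.3.3, with Benjamini-Hochberg adjustment over 20694 genes and a threshold of 0.05. CPM are TMM-scaled, and CPM per kb divides by merged exon length in GENCODE M21 (mm10). DESeq2 1.42.0, limma 3.58.1 (voom) and offsets from mgcv 1.9.3 served as alternatives. The fit was tested on simulated data. The floor given for a count of 0 covers counting error only, and the counts carry no molecular identifiers. The SD and SE include the spread between libraries. The labels call the libraries biological duplicates and do not say which animals they came from, so p-values measure the spread between these libraries.

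The members, the 3 partner lists, the marker lists and the alternatives were chosen with earlier results of these data known. The genes named are Adgrb2, Adgrl1 and Celsr2, every member called, every member that passed the filter (by library at a mean of 5 CPM or more, otherwise by range), members that did not pass with their counts, and of each partner list the called genes or the 2 with the smallest p. Promoter sequences came from RefSeq.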

Additional observations from a re-analysis of the deposited data

How the results depend on the processing

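The number of members called in treated tau against tau (1, beside 3.76% of all genes) became 2 with DESeq2 (3.93% of all genes), 0 with protein-coding genes only (0.305%), 3 with only the 2 groups compared (4.29%), between 0 and 3 when 1 library was left out (1.62% to 3.85%), and 3 (Adgrb1, Adgrl1 and Celsr2) without control 1 and tau 2 together (4.88%), a choice made after seeing the data. In tau against control (0, beside 0%) it became 2 (Adgrb1 and Celsr2) without control 1 and tau 2 together (0.606% of all genes), and in treated tau against control (0, beside 4.22%) it lay between 0 and 1 when 1 library was left out, Adgrg1 being the 1 without control 2 (3.63%). The median member log2 fold change in tau against control (-0.055) was -0.112 with the stricter filter of 1 CPM, which leaves 23 members, and between -0.12 and -0.024 when 1 library was left out. When 1 library was left out, that median lay between 0.006 and 0.109 in treated tau against tau (0.053) and between -0.043 and 0.07 in treated tau against control (0.031), where the stricter filter gave -0.032. Why these values moved was not tested. Some of the fits concerned held fewer genes or libraries, and the part of this was not tested either. With the replicate block 1 member was called in treated tau against tau (3.43% of all genes) and 0 in tau against control (0%). In treated tau against control 0 were called, a count without its share of all genes here, from which nothing is read. No call changed with the block. The replicate numbers did not pair the libraries, since same-numbered libraries deviated with correlations of 0.01 (tau and control), -0.008 (treated tau and control) and 0.073 (treated tau and tau). No called value changed sign under any alternative. With 2 libraries a group and 3 residual degrees of freedom, members under about 5 CPM have SE of up to 0.73 on the log2 scale, so differences in them were not detectable at this depth unless large.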
